A study of Mus musculus with 4 samples.

Results

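The Cyp2c family of cytochrome P450 enzymes was described in the livers of mice given aristolochic acid type I (AAI), a plant nephrotoxin. The members were the 10 genes named Cyp2c29, Cyp2c37, Cyp2c38, Cyp2c39, Cyp2c40, Cyp2c44, Cyp2c50, Cyp2c54, Cyp2c55 and Cyp2c70 on the array, found by gene name, and measured by 13 of the 56605 probes. They were 10 of 37074 gene names. Another 6 names of the family (Cyp2c53-ps, Cyp2c65, Cyp2c66, Cyp2c67, Cyp2c68 and Cyp2c69), with 6 probes, are given beside them. The samples were 4 pools of liver RNA, each made from 5 wild-type C57BL/6 mice that were 6 weeks old by the labels, and each pool was hybridised to 1 single-colour array. Female mice received AAI at 5 mg/kg/day (F_AAI_5) and male mice at 2 mg/kg/day (M_AAI_2), dissolved in corn oil and injected into the peritoneum on 5 days a week for 3 weeks. The F_Corn_oil and M_Corn_oil groups were female and male mice of the same strain and age given corn oil without AAI. The dose differed between the sexes, so sex and dose cannot be told apart in the response to AAI. With 1 array of pooled RNA per group there was no replicate and no test, and every difference given compares these arrays.

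The Cyp2c enzymes are membrane-bound monooxygenases of the endoplasmic reticulum that add oxygen to drugs, plant compounds, fatty acids, retinoids and, in one case, bile acids. Many of them turn arachidonic acid into epoxyeicosatrienoic acids, lipid mediators that act on blood vessels and kidney tubules, and soluble epoxide hydrolase then clears these. In mouse liver the genes lie mostly in a single cluster, several of them are induced through the nuclear receptors CAR and PXR, and some are transcribed more in one sex because growth hormone is secreted in different patterns in males and females.

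All 19 Cyp2c probes lay on chromosome 19 of the mouse genome build mm9. The probes of every name but Cyp2c44 lay between chr19:39110063 and chr19:40228028, and the Cyp2c44 probes lay apart, at chr19:44079535-44079594 and chr19:44088131-44088190 on the minus strand. Cyp2c44 carries the symbol Cyp2c23 in the current RefSeq gene table. Of the members, 7 had 1 probe and 3 (Cyp2c44, Cyp2c50 and Cyp2c55) had 2. The array design lists up to 4 transcripts for a probe. For 11 of the 13 member probes the RefSeq transcripts listed belonged to 1 gene and for 2 they belonged to more than 1. The Cyp2c37 probe was listed for Cyp2c50 as well, and the Cyp2c40 probe for Cyp2c68. The first pair of sequences, shown 5′ to 3′ as are the others, is the last 30 bases of the Cyp2c37 probe (chr19:40086399-40086458) and the first 30 of the brighter Cyp2c50 probe (chr19:40188154-40188213), both on the plus strand, with the 12 bases that they share in capitals.
Cyp2c37 probe, last 30 bases: cttctgtgatcaccctgaGGCTTTAATTCA
Cyp2c50 probe 1, first 30 bases: GGCTTTAATTCActgctttccacactggac

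Signals of Cyp2c37 and Cyp2c50 may therefore share transcripts, and so may those of Cyp2c40, Cyp2c67, Cyp2c68 and Cyp2c69. The Cyp2c40 probe spanned 15639 bases of the genome (chr19:39861388-39877026, minus strand) for its 60 bases, which places it across a splice junction. It is shown because Cyp2c40 had the largest difference between the sexes among the members with a measured ratio. The Cyp2c29 probe (chr19:39403642-39403701, plus strand), from the member with the next largest measured ratio of females over males, follows it, and each of the 2 had 1 reading frame free of stop codons.
Cyp2c40: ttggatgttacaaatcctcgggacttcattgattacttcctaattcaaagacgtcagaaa
Cyp2c29: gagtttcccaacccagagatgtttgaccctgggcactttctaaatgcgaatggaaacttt

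For 3 members the probes of the same gene gave unequal ratios, so the position of each matters. The first 30 bases of each are shown. The brighter Cyp2c44 probe began at base 1881 of its transcript and the dimmer one at base 908. The brighter Cyp2c55 probe (chr19:39116674-39116733, plus strand) began at base 1485 and the dimmer one (chr19:39110063-39110122) at base 1116. The second Cyp2c50 probe (chr19:40166565-40166624, plus strand) was listed for a RefSeq transcript of Cyp2c50 that is not among those of the first.
Cyp2c44 probe 1: ccacacacattttcctattctcacgtaaaa
Cyp2c44 probe 2: atctgattttaatctggagaatttggccat
Cyp2c50 probe 2: cctccttaggatgcactaaagtacatattt
Cyp2c55 probe 1: ttcattcctcgttaaagcagaacacactgg
Cyp2c55 probe 2: aacaatgtgccccatgcagctacctgtaat

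Values are log2 signals after quantile normalization of the 4 arrays, and a log2 ratio of 1 is a 2-fold difference. A gene is given by its brightest probe unless a probe is named. The spot error estimated by the scanner software came to 0.20 on the log2 scale for the ratio of 2 arrays at most member probes. The log2 ratios of different probes of 1 gene had a median SD of 0.25 over 9108 genes in females, of 0.24 over 8601 genes in males and of 0.23 over 8875 genes between the corn oil arrays. Both are technical errors, and neither covers the spread between mice. Of the 13 member probes, 12 were well above background on all arrays, none was saturated and none was marked as an outlier.

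The arrays differed in the tissue markers they carried. All 8 skeletal muscle markers were at least 2-fold higher with AAI in both sexes, by log2 ratios of 4.25 to 8.08 in females and 5.58 to 6.80 in males, and all 8 were lower in F_Corn_oil than in M_Corn_oil. In males 4 of 5 adrenal cortex, 3 of 5 adrenal medulla and 4 of 5 fat markers were also at least 2-fold higher with AAI. The remaining adrenal cortex marker, Mc2r, was at least 2-fold lower in males, with a log2 ratio of -2.08. The remaining fat marker, Plin1, had -0.72. Of 5 Kupffer cell markers, 4 were at least 2-fold lower with AAI in females and 1 in males. The Kupffer cell markers' log2 ratios in males ran from -1.04 to -0.47. The summed signal of the 7 hepatocyte markers on the array was 21.14, 21.17, 21.10 and 21.12 on the log2 scale in F_Corn_oil, F_AAI_5, M_Corn_oil and M_AAI_2. This sum rests mostly on the brightest markers, and quantile normalization gives every array the same set of highest values. It therefore cannot show whether the arrays held equal shares of hepatocyte RNA. The log2 ratios of these 7 markers with AAI ran from -0.15 to 0.47 in females and from -0.94 to 0.57 in males. Their median was 0.00 in females and -0.04 in males. Centring every ratio on that median left the members' median at 0.27 in females and put it at -0.05 in males. The summed signal of the muscle markers was 10.01, 15.35, 12.33 and 18.40 in the same order, that of the 5 adrenal cortex markers 9.88, 9.85, 11.59 and 14.82, and that of the 5 fat markers 11.87, 12.02, 12.26 and 15.63, so M_AAI_2 was highest for all 3 tissues. What part the muscle, adrenal and fat transcripts had in any single member's ratio was not tested. In bulk tissue, fewer cells of a type and less RNA per cell cannot be told apart.

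In females given AAI at 5 mg/kg/day, no member was 2-fold higher or lower than with corn oil at its brightest probe. The second Cyp2c50 probe, which these counts leave out, was 2.40-fold higher. The 10 members had a median log2 ratio of 0.27, beside 0.04 over the 31636 genes measured, and 8 of them were higher and 2 lower. Over all genes measured, 3.07% had a signal that was lower by 2-fold or more and 1.34% a signal that was higher by as much, and 0 of 10 members is near those shares. The SD between probes was exceeded by 6 members that were higher (Cyp2c29, Cyp2c37, Cyp2c39, Cyp2c40, Cyp2c50 and Cyp2c70) and by 2 that were lower (Cyp2c44 and Cyp2c55). Differences of that size were common, with 29% of the 29675 genes above background on both arrays higher by more than it and 25.1% lower.

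In males given AAI at 2 mg/kg/day, 1 of 10 members, Cyp2c55, was at least 2-fold lower and none was at least 2-fold higher. The background was 4.56% of 30489 genes lower and 3.47% higher. The members' median log2 ratio was -0.08, beside 0.00 over all genes, with 6 members lower and 4 higher. Cyp2c40 and Cyp2c70 were higher by more than the SD between probes, and Cyp2c38, Cyp2c44, Cyp2c54 and Cyp2c55 were lower by more than it, where 28.1% of the 28393 genes above background on both arrays were higher and 26.7% lower by more than the same SD. Cyp2c29, Cyp2c39, Cyp2c40 and Cyp2c70 were higher with AAI in both sexes, Cyp2c44 and Cyp2c55 were lower in both, and the ratios of Cyp2c37, Cyp2c38, Cyp2c50 and Cyp2c54 were above 0 in females and below it in males. For none of these 4 did both ratios exceed the spot error, the male ratios of Cyp2c37 and Cyp2c50 (-0.02 and -0.15) lay inside it, and these turned to 0.15 under 75th percentile scaling and to 0.16 with averaged probes. No difference between the sexes in the response was tested.

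**Figure D1:**
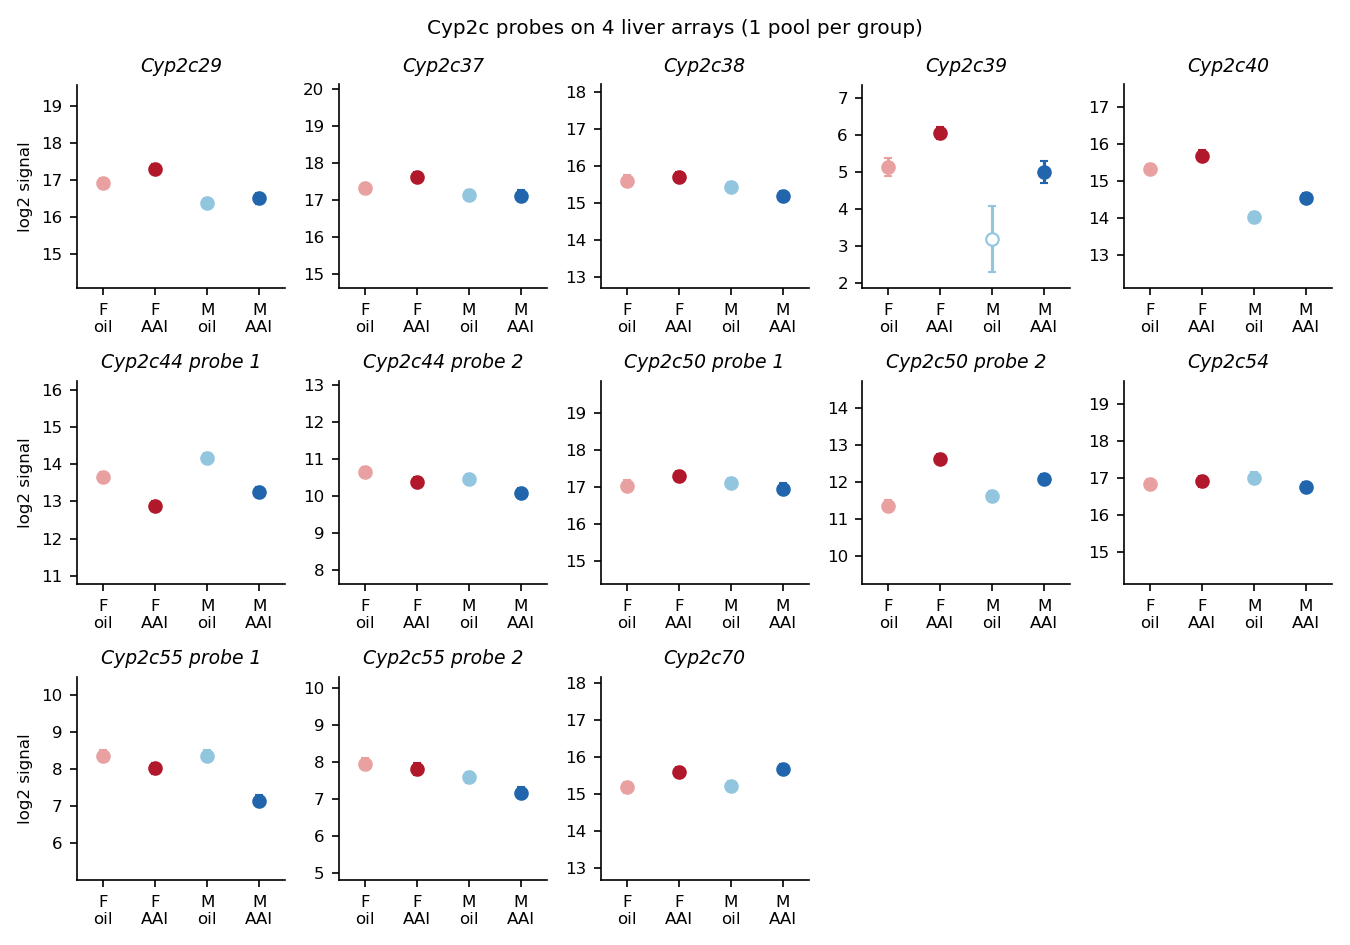
Log2 signal of each of the 13 Cyp2c member probes (vertical axis, each panel spanning the same range) in 1 array of pooled liver RNA for each of F_Corn_oil, F_AAI_5, M_Corn_oil and M_AAI_2. Bars are the scanner's estimate of the spot error and the open point is not well above background: Cyp2c44 sits lower with AAI in both sexes at each of its probes, and Cyp2c40 sits higher in both female arrays than in both male arrays.

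Among the epoxygenases and general monooxygenases of the family, Cyp2c29 is an abundant liver enzyme inducible through CAR that forms epoxides of arachidonic acid. Its log2 signal was 16.92 in F_Corn_oil, 17.30 in F_AAI_5, 16.38 in M_Corn_oil and 16.51 in M_AAI_2. Both female arrays were above both male arrays, and the log2 ratio with AAI was 0.38 in females and 0.13 in males, the latter within the spot error.

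Cyp2c37, which hydroxylates arachidonic acid, had signals of 17.34, 17.63, 17.15 and 17.13 in the same order of F_Corn_oil, F_AAI_5, M_Corn_oil and M_AAI_2. The array of AAI-treated females was highest, the male arrays differed by 0.02, and the ratio in females was 0.29. Cyp2c38, another epoxygenase, had signals of 15.60, 15.70, 15.43 and 15.19. Its log2 ratio was 0.10 in females, inside the spot error, and -0.24 in males, just beyond it.

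Cyp2c50 and Cyp2c54 epoxidise arachidonic and linoleic acid. The brighter Cyp2c50 probe had log2 signals of 17.05, 17.31, 17.12 and 16.97 in F_Corn_oil, F_AAI_5, M_Corn_oil and M_AAI_2, with ratios of 0.25 in females and -0.15 in males. Cyp2c54 had signals of 16.85, 16.92, 17.02 and 16.77, with ratios of 0.07 and -0.25, and its whole range over the 4 arrays was 0.25, the smallest of the 13 probes. Thus Cyp2c37, Cyp2c38, the brighter Cyp2c50 probe and Cyp2c54 stayed within a range of 0.50, 0.51, 0.34 and 0.25 on the log2 scale over sex and treatment.

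The second Cyp2c50 probe did not follow the first. Its signals were 11.35 in F_Corn_oil, 12.61 in F_AAI_5, 11.60 in M_Corn_oil and 12.07 in M_AAI_2, so both AAI arrays were above both corn oil arrays. The log2 ratio was 1.26 in females, a 2.40-fold higher signal, and 0.47 in males. In females it exceeded the ratio of the first probe by more than the spot error and more than the SD between probes of a gene, and it was the largest ratio with AAI at any of the 13 member probes in that sex. The 2 probes are listed for different Cyp2c50 transcripts, and levels of different probes are not comparable.

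Cyp2c39, known for the hydroxylation of retinoic acid, was the member near the detection limit. Its signals were 5.14 in F_Corn_oil, 6.05 in F_AAI_5, 3.18 in M_Corn_oil and 4.99 in M_AAI_2, and in M_Corn_oil the probe was not well above background. With AAI it was 1.89-fold higher in females, a log2 ratio of 0.92 with a spot error of 0.30. Of the 29675 genes above background on both female arrays, 1.55% were higher by as much. In males the bound was 1.63-fold higher, a log2 ratio of 0.70. That bound was 0.34 with normexp background correction and 0.42 without the correction of multiplicative trends. Without the filter on dim probes the male ratio was 1.81, with a spot error of 0.93 that came mostly from the dim M_Corn_oil spot. With scaling to the 75th percentile, or without the correction of multiplicative trends, its ratio in females passed 2-fold, and with normexp background correction it was 0.37. Of 8 genes of retinoid clearance, 1 was at least 2-fold higher in females, Cyp26a1, the main hydroxylase of retinoic acid, with a log2 ratio of 1.11, and none passed 2-fold in males. Over all genes measured, 1.34% were at least 2-fold higher in females, and 3.47% were higher and 4.56% lower in males.

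Cyp2c44 forms epoxyeicosatrienoic acids and is the mouse counterpart of an epoxygenase of rat kidney. Its brighter probe had signals of 13.67 in F_Corn_oil, 12.87 in F_AAI_5, 14.17 in M_Corn_oil and 13.26 in M_AAI_2. Both AAI arrays were below both corn oil arrays. The log2 ratios were -0.80 in females and -0.90 in males, that is 1.74-fold and 1.87-fold lower with AAI. Among genes above background on both arrays, 4.91% were lower by as much in females and 5.08% in males.

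The dimmer Cyp2c44 probe gave signals of 10.65, 10.38, 10.45 and 10.08 in the same order, again with both AAI arrays below both corn oil arrays. Its ratios of -0.26 and -0.37 had the same direction and were smaller, and the mean of the 2 probes was -0.53 in females and -0.64 in males. Cyp2c44 was thus lower with AAI in both sexes at each probe, by under 2-fold.

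Cyp2c55, an enzyme known from the intestine that is inducible in liver through CAR and PXR, had signals of 8.36 in F_Corn_oil, 8.02 in F_AAI_5, 8.36 in M_Corn_oil and 7.15 in M_AAI_2 at its brighter probe. The array of AAI-treated males stood below the other 3. The log2 ratio was -1.21 in males, a 2.31-fold lower signal, and -0.33 in females, and 2.86% of genes above background on both male arrays were lower by as much. The second probe had signals of 7.95, 7.81, 7.59 and 7.17, with ratios of -0.14 in females and -0.42 in males. The direction was shared by the probes, and the 2-fold difference in males was not: averaging them gave -0.81, and normexp background correction also put Cyp2c55 inside 2-fold.

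Cyp2c40 hydroxylates arachidonic acid. Its signals were 15.32 in F_Corn_oil, 15.68 in F_AAI_5, 14.02 in M_Corn_oil and 14.54 in M_AAI_2, with both female arrays above both male arrays. The log2 ratio with AAI was 0.36 in females and 0.52 in males, and 10.9% of genes were higher by as much in males.

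Cyp2c70 makes the muricholic acids, the hydrophilic bile acids that mice have and humans lack. Its signals were 15.19 in F_Corn_oil, 15.60 in F_AAI_5, 15.23 in M_Corn_oil and 15.68 in M_AAI_2. Both AAI arrays were above both corn oil arrays, by ratios of 0.40 in females and 0.45 in males, about 1.32-fold and 1.37-fold. Of 11 other genes of bile acid synthesis, 1 was at least 2-fold lower in females and 2 in males, and none was at least 2-fold higher in either sex. They were Cyp8b1, the sterol hydroxylase that makes cholic acid, with -1.50 and -2.59, and in males Cyp7b1, of the alternative pathway, with -3.06.

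**Figure D2:**
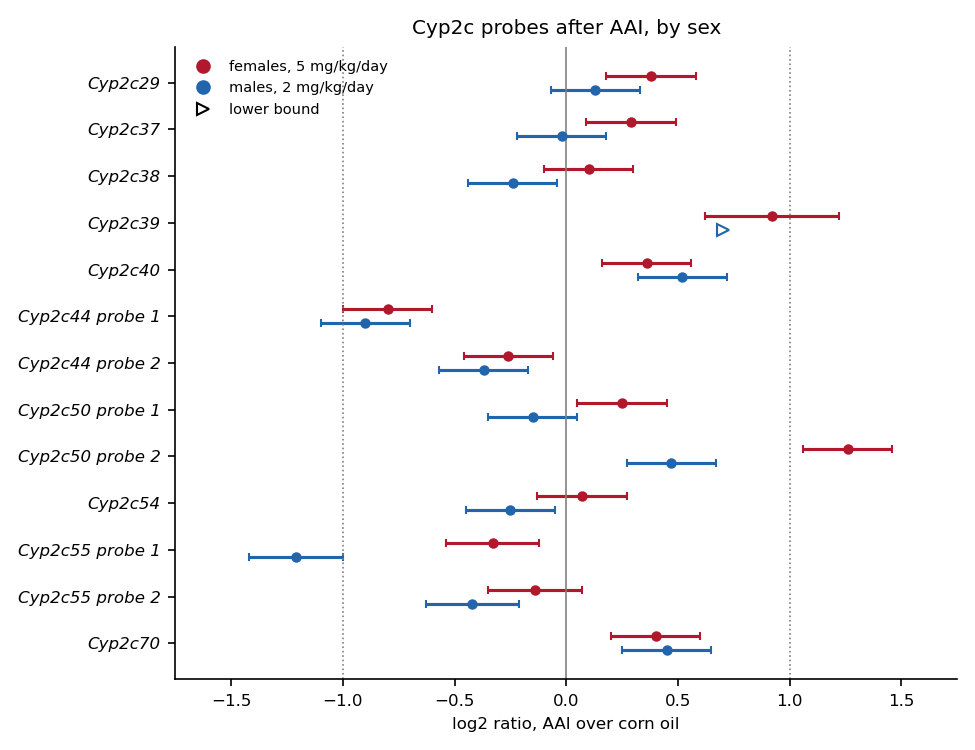
Log2 ratio of AAI over corn oil (horizontal axis) for each of the 13 Cyp2c member probes, in females given 5 mg/kg/day and in males given 2 mg/kg/day. Bars are the scanner error of the ratio, dotted lines mark 2-fold, and the open triangle is a lower bound: Cyp2c50 probe 2 in females, with 1.26, and Cyp2c55 probe 1 in males, with -1.21, lie beyond 2-fold.

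Between the corn oil arrays, 1 of 10 members, Cyp2c40, was at least 2-fold higher in females than in males, and none was at least 2-fold lower. The background was 1.84% of 30846 genes higher and 3.81% lower. The members' median log2 ratio of females over males was 0.08, beside 0.02 over all genes, with 5 members higher and 5 lower. Cyp2c40 was 2.47-fold higher in females, a log2 ratio of 1.30, and 0.654% of genes above background on both arrays were higher by as much. Cyp2c39 was higher in females by a bound of 1.80-fold, a log2 ratio of 0.85. That bound was 0.34 with normexp background correction. Without the filter on dim probes the Cyp2c39 ratio was 1.96, with a spot error of 0.92. Cyp2c29 was higher by a log2 ratio of 0.54.

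Cyp2c44 had a ratio of -0.50 at its brighter probe and of 0.20 at the dimmer one, so its probes went against each other in the comparison of the sexes. At the brightest probes of Cyp2c37, Cyp2c38, Cyp2c50, Cyp2c54, Cyp2c55 and Cyp2c70 the ratio lay between -0.17 and 0.19, inside the spot error of 0.20 to 0.21. At the second probes of Cyp2c50 and Cyp2c55 it was -0.25 and 0.36, beyond that error. Scaling to the 75th percentile raised the members' median to 0.34, and with it the ratios of Cyp2c50, Cyp2c54 and Cyp2c70 turned from below 0 to above it. This scaling moved bright genes in general, whose median went from 0.02 to 0.28. The new ratios of Cyp2c50, Cyp2c54 and Cyp2c70 were 0.16, 0.06 and 0.26, all below that median.

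The genes beside Cyp2c40 in the cluster behaved alike at their own probes. In corn oil, Cyp2c67, Cyp2c68 and Cyp2c69 had log2 ratios of females over males of 1.09, 1.19 and 1.20. The probes of Cyp2c67 and Cyp2c68 matched at 55 of 59 overlapping bases, and the Cyp2c68 and Cyp2c69 probes were each listed for several of these genes, Cyp2c40 among them. These 4 ratios are therefore not independent of each other. The start of the overlap is shown with matching bases in capitals.
Cyp2c67, first 30 bases of the overlap: ACaCAGTCCCAGaAATTCCATCTATATTCC
Cyp2c68, the same stretch: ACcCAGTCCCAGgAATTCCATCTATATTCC

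The remaining names had ratios of -0.33 for the pseudogene Cyp2c53-ps, -0.05 for Cyp2c65 and 0.69 for Cyp2c66. With AAI, none of the 6 names outside the members reached 2-fold in either sex. That count is near the shares of all genes, 3.07% lower and 1.34% higher in females and 4.56% and 3.47% in males. Cyp2c53-ps had the highest ratio in females, 0.46, and the lowest in males, -0.70, while Cyp2c66 had the lowest in females, -0.20, and the highest in males, 0.31. In AAI-treated mice the females over males ratio was 1.13 for Cyp2c40, 1.35 for Cyp2c67, 1.32 for Cyp2c68 and 1.33 for Cyp2c69. The female arrays stayed above the male ones for this group of probes under both treatments.

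**Figure D3:**
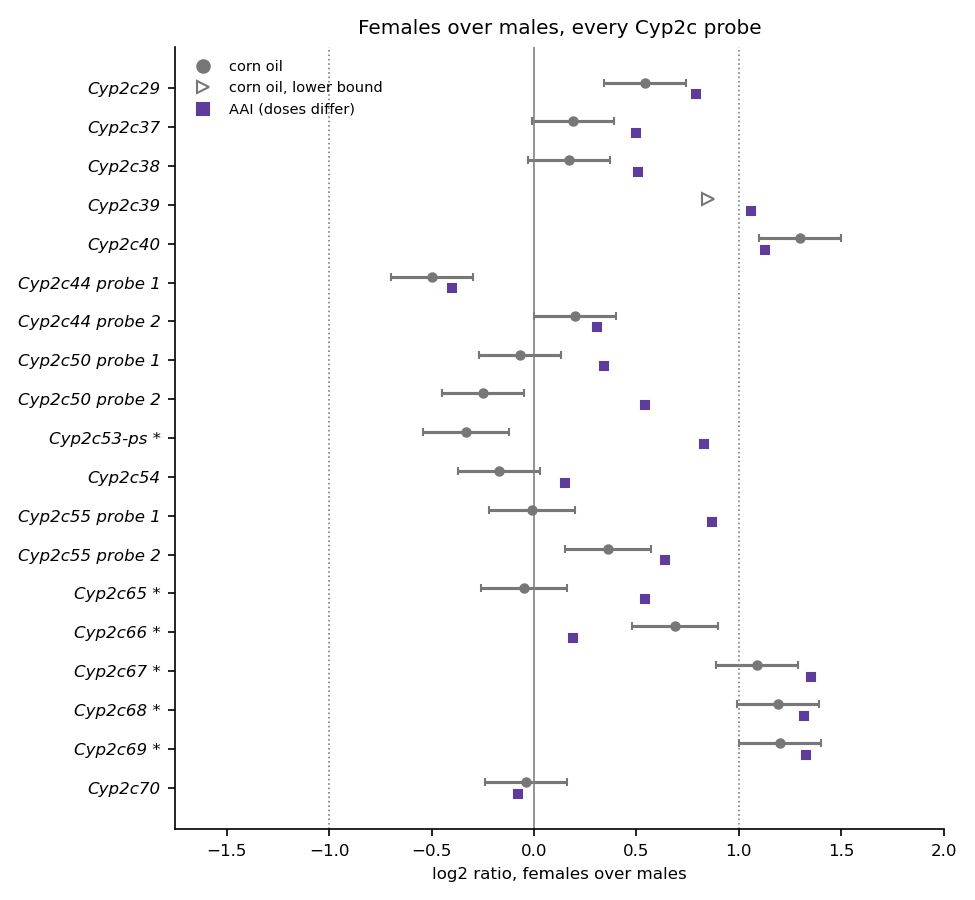
Log2 ratio of females over males (horizontal axis) for all 19 Cyp2c probes, in the corn oil arrays (circles, with the scanner error of the ratio, and a triangle for a lower bound) and in the AAI arrays (squares), where the doses differed. Names with an asterisk are not among the 10 members, and dotted lines mark 2-fold: Cyp2c40, Cyp2c67, Cyp2c68 and Cyp2c69 lie at 1.09 to 1.30 in corn oil.

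Lists of sex-biased liver genes were set beside the members in AAI-treated males. Of 12 male-biased genes, 9 were at least 2-fold lower and none higher with AAI in males, with a median log2 ratio of -2.92. Of 15 female-biased genes measured, 9 were at least 2-fold higher and 1 lower, with a median of 2.29. The lower one was Cyp3a16, with -1.23, which was not higher in females than in males in corn oil (-0.39). In that comparison of the sexes, 12 of 16 genes of the female-biased list were at least 2-fold higher in females. Cyp2b9, a female-predominant P450, had 5.28 in males. In the same array Cyp2c40 had 0.52, Cyp2c67 -0.12, Cyp2c68 0.22 and Cyp2c69 0.12. In females, 3 of the male-biased genes were at least 2-fold lower, and 1 of 16 female-biased genes was lower and 1 higher. The lists were drawn up with earlier results of these data known.

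Of 8 genes known to respond to CAR, 3 were at least 2-fold higher and 1 lower in males, and 1 was lower in females. Cyp2b10, the standard CAR target, had log2 ratios of 4.35 in males and -1.23 in females. Cyp2c29 and Cyp2c37, which CAR also induces, had 0.13 and -0.02 in males and 0.38 and 0.29 in females. Cyp2b9, Cyp2b10 and Cyp2b13 made up the 3 higher genes in males, and 2 of them are also in the female-biased list. All 3, Cyp2b10 included, were higher in females than in males in corn oil, by log2 ratios of 6.70, 6.22 and 7.24. Cyp3a11, a PXR target, was the 1 lower gene in males, with -1.10.

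**Figure D4:**
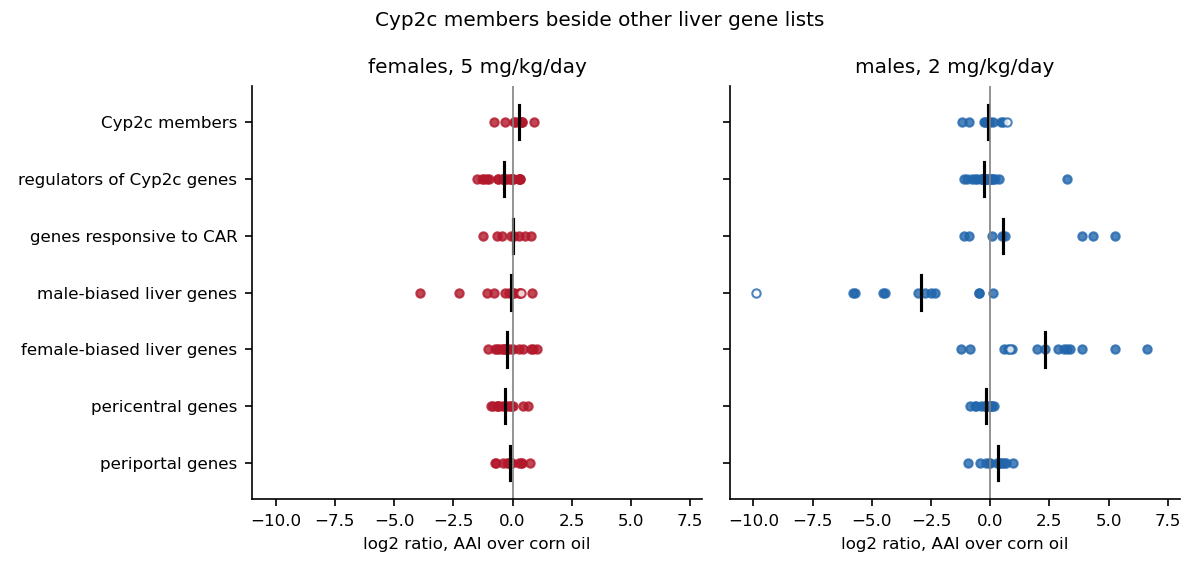
Log2 ratio of AAI over corn oil (horizontal axis) of single genes in 7 groups, in females at 5 mg/kg/day and in males at 2 mg/kg/day. Each point is 1 gene by its brightest probe, open points are bounds and vertical bars are group medians: in males the Cyp2c members lie on both sides of 0, from -1.21 to at least 0.70 with a median of -0.08, and the male-biased and female-biased lists have medians of -2.92 and 2.29.

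Of 22 regulators of Cyp2c genes, 4 were at least 2-fold lower in females and none higher, and in males 1 was lower and 1 higher. The lower ones in females included the liver factor Onecut1 with -1.31 and the PXR gene Nr1i2 with -1.22. Cux2, a repressor found in female liver, was higher in males by 3.25. Nr1i3, which encodes CAR, had ratios of 0.25 in females and 0.38 in males, and Hnf4a, a main activator of the family, had -0.42 and -0.38.

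Of the 9 partners of microsomal P450s, none passed 2-fold with AAI. Por, the reductase that passes electrons to every Cyp2c enzyme, had 0.31 in females and 0.50 in males, and Alas1, the first enzyme of haem synthesis, had -0.90 and -0.87. Among the 10 genes of arachidonate epoxygenation and epoxide hydrolysis, 1 was at least 2-fold lower in females and none of 8 measured in males. The 1 was Ephx4, with a bound of -1.69 near the detection limit. Its log2 signal was 5.50 in F_Corn_oil and 3.77 in F_AAI_5, where it was not well above background. Ephx2, soluble epoxide hydrolase, had -0.22 and -0.91, and the epoxygenase Cyp2j5 had -0.23 and -0.89. None of 13 pericentral and none of 12 periportal genes passed 2-fold with AAI in either sex. Over all genes measured, 3.07% were at least 2-fold lower and 1.34% higher in females, and 4.56% lower and 3.47% higher in males. In lists this short, counts of none are near those shares.

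All P450 genes outside the members were counted for scale. Of 83 in females, 3 were at least 2-fold lower and 4 higher, and of 82 in males, 13 were lower and 10 higher. The median size of the log2 ratio, without its sign, was 0.34 for the members and 0.24 for the other P450 genes in females, and 0.35 against 0.64 in males. Among the 1646 genes with a mean log2 signal of 14 or more, the stratum that holds 7 of the 10 members, 4.01% were at least 2-fold lower and 0.486% higher in females, and 2.13% lower and 0.79% higher in males.

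Of the members, 3 ranged over at least 1 on the log2 scale across the 4 arrays while above background on all of them. For these, the P450 gene with the most similar profile was sought among 86 others, by the distance between log2 signals centred on each gene's mean. The nearest to Cyp2c40 was Cyp2c68, at 0.22, with signals of 16.85, 17.20, 15.66 and 15.88 and with probe listings in common. The nearest to Cyp2c55 was Cyp2d40, at 0.26, with 14.22, 13.70, 14.36 and 13.14 in F_Corn_oil, F_AAI_5, M_Corn_oil and M_AAI_2. The nearest to Cyp2c44 was Cyp4x1, at 0.33. Each rests on 4 arrays and is a description of these profiles.

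Promoter sequences from RefSeq (build GRCm38.p6, 250 bases before to 50 after a start site) were found for 8 of the 10 members under the file's or the current symbol, as 9 promoters. The letters CAAAGTCCA, a site known for the liver factor HNF4, were found on either strand in 2 of the 9 and in 0.475% of the 32851 promoters of the table. The 2 were those of Cyp2c40 and Cyp2c70. Cyp2c29 and Cyp2c39, which like these had higher signals with AAI in both sexes, had no match in their promoters. The stretches are shown for chr19:39812835-39812875 and chr19:40187326-40187366, both on the minus strand, with the letters searched in capitals.
Cyp2c40 promoter: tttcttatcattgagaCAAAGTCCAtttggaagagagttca
Cyp2c70 promoter: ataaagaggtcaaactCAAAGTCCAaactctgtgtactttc

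TTCNNNGAA, the letters of a STAT5 site, were in none of the 9 member promoters and in 8.3% of all promoters, and GTTAATNAT, the first part of an HNF1 site, was in none and in 0.801%. TATAAA was in 6 of the 9 and in 13.6% of all, and AGGTCA, a nuclear receptor motif of a single repeat, in 3 and in 16.3%. No match of one motif overlapped a match of another in the member promoters. These are matches of letters in a window of 300 bases, and binding was not measured.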

How the data were processed

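Pooled liver RNA of 5 mice per group was measured on 4 single-colour arrays carrying 60-base probes. The authors scanned the arrays with Feature Extraction 10.5.1.1 and deposited an intensity for each spot, background-subtracted and corrected for trends but not normalized between arrays, with an error estimate, and a table of quantile-normalized intensity. Log2 of the processed signal was quantile normalized over the 4 arrays here (Python 3.11.15, numpy 2.4.6, pandas 2.3.3), as the authors' methods state, for the 56393 probes with a value on every array. Control spots, outlier spots and spots whose signal had been replaced by a background value were left out. A gene was its brightest probe, counted at 2-fold when well above background on at least 1 of 2 arrays, with a bound where the other was not. No test could be made with 1 array per group, and precision is limited by their number. Normexp used limma 3.58.1 in R 4.3.3. The steps were tested on simulated data. Genes outside the members were named by fixed rules: every Cyp2c name, up to 4 genes per list with the largest ratios, and the nearest P450. Some genes that these rules name are not reported here. The members and lists were chosen with earlier results of these data known.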

Additional observations from a re-analysis of the deposited data

How the results depend on the processing

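Each comparison was recomputed under 75th percentile scaling, normexp background correction, no correction of multiplicative trends, the authors' normalized table, averaged probes, no filter on dim probes, replaced spots kept, a 3-fold threshold and, chosen after seeing the data, centring on hepatocyte markers. In females, 1 member was at least 2-fold higher in place of 0 under 75th percentile scaling and without the trend correction, in both cases Cyp2c39. In males, the count of members at least 2-fold lower was 0 in place of 1 with normexp, with averaged probes and at 3-fold, and 1 in place of 0 (Cyp2c39) was at least 2-fold higher without the filter on dim probes. The members' median in males was 0.09 under 75th percentile scaling and 0.06 with averaged probes, in place of -0.08. That scaling also moved the median of all bright genes in males from 0.03 to 0.21. Between the corn oil arrays, 2 members in place of 1 were at least 2-fold higher in females without the filter and 0 at 3-fold. The members' median there was 0.34 in place of 0.08 under 75th percentile scaling, and that of all bright genes 0.28 in place of 0.02. Of 240 single-gene values under these alternatives, 20 moved by more than the SD between probes, no ratio beyond 2-fold changed sign, and 6 of 30 results, each at 0.17 or less in size, changed sign under at least 1. Over all genes, 75th percentile scaling moved the share of 2-fold calls that were higher in females from 30.4% to 45.8%, and the filter's absence moved it to 42.8%. Normexp reduced all 2-fold calls in females to 322 lower and 138 higher. No array could be left out, since each group has 1. No paired analysis was possible because the groups, with 1 array each, share fewer than 2 replicate numbers, and treatment pairs within each sex differ in dose. The brightness of Cyp2c39, near background, limits its ratios, and single-probe members have no check by another probe.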
